A study of Mus musculus with 6 samples.

Results

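A set of 10 genes that mark white and brown fat cells was followed in RNA sequencing of 6 mouse lungs: Adipoq, Retn, Cfd, Plin1, Plin4, Cidec, Lipe, Adrb3, Ucp1 and Pck1. They were chosen by symbol, with earlier results of these data known, and all 10 have a row among the 24054 gene rows of the table. Each lung came from a female SCID mouse, an immunodeficient strain. Every mouse first received extracellular vesicles (EVs, membrane particles shed by cells) positive for CD9, CD63 and CD81 by tail vein, then rat ELT3 cells by vein 48 h later, and lungs were taken after another 72 h. ELT3 is an established rat line used as a model of lymphangioleiomyomatosis. The EVs came from neural progenitors, taken from mouse embryos at E15.5 and cultured. In the WT EV group (3 lungs) the progenitors were wild type, and in the Tsc1-null EV group (3 lungs) they lacked Tsc1, a brake on the growth kinase mTORC1. The age of the mice is not given in the sources used here. No lung without EVs or without ELT3 cells was analysed here, so all values are relative to WT EV. Each sample has a number of its own in the labels and is counted here as 1 mouse. The labels say no more on how the replicates were made, so p-values measure only the spread between these samples, which may be technical.

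Fat cells store triglyceride in a droplet coated by perilipins. Adrenergic receptors trigger lipases that release fatty acids from it, and the cells secrete hormones known as adipokines. Brown fat cells also burn fatty acids for heat through the uncoupling protein UCP1. The lung parenchyma itself holds few such cells, and fat lies next to it around the large airways, the vessels and the heart. In whole tissue, fewer cells of a type and less RNA per cell cannot be told apart.

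The libraries held 5101413 to 9358820 reads assigned to genes. A library of each group stood apart from the rest. The median correlation with other libraries was 0.963 for WT EV replicate 2 and 0.942 for Tsc1-null EV replicate 1, and 0.980 to 0.982 for the remaining 4. Malat1, a nuclear RNA, had levels of 15673 and 30060 there, against 1609 to 2819 elsewhere. Lung markers were strong in all 6: Scgb1a1, of club cells, stood between 48294 and 91441, and the endothelial Pecam1 between 519.8 and 1044. Values throughout are TMM-normalized CPM (reads scaled to a common library size), given as mean ± SD over 3 samples. Differences are log2 folds on the scale of value + 1, which understates the fold of low genes, with Tsc1-null EV as numerator, ± SE, from limma over 14159 genes with Benjamini-Hochberg adjustment.

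All 10 genes had a lower mean in Tsc1-null EV than in WT EV lungs, but none passed the test. Their median log2 fold was -0.96, against -0.02 over all genes tested, and 7461 of those 14159 genes (52.7%) were also below 0. Ucp1 passed the filter on low values only through WT EV replicate 3, so its direction was fixed in advance. The median of the other 9 genes was -0.90. As the genes were chosen with earlier results of these data known, these comparisons are a description. Limma called 0 of the 10 at an adjusted p under 0.05, where it called 0% of all genes tested. Plin4 and Adrb3, 2 of the 10, had an unadjusted p under 0.05, against 6.57% of all genes tested in either direction and 2.97% in the lower direction. edgeR called 0 of the 9 it tested (Ucp1 was filtered out) and 0% of all genes. DESeq2 gave an adjusted p for only 3 of the 10 (Cfd, Cidec and Lipe) and called 0 of these. The other members could not be called by it. It called 0.0989% of all genes in either direction and 0.0424% lower. At an unadjusted p under 0.05 edgeR had 1 of the 9, against 6.93% of all genes it tested, and DESeq2 had 5 of the 10, against 6.7%. With libraries weighted by their spread, limma called 4 of the 10 lower (Adrb3, Pck1, Ucp1 and Cidec), and it then called 7.42% of all genes and 3.3% lower. The largest weight (4.19) went to WT EV replicate 3, the library where all 10 were highest. Ucp1 passed the filter on low values only through that library, so its call is no support. The spread between samples of 1 group was wide. Without WT EV replicate 3 the median was -0.41, and without Tsc1-null EV replicate 1 it was -0.48. Without both libraries that stood apart it was -1.001, with 0 of the 10 called, where 0.164% of all genes were called and 0.0854% were called lower.

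**Figure D1:**
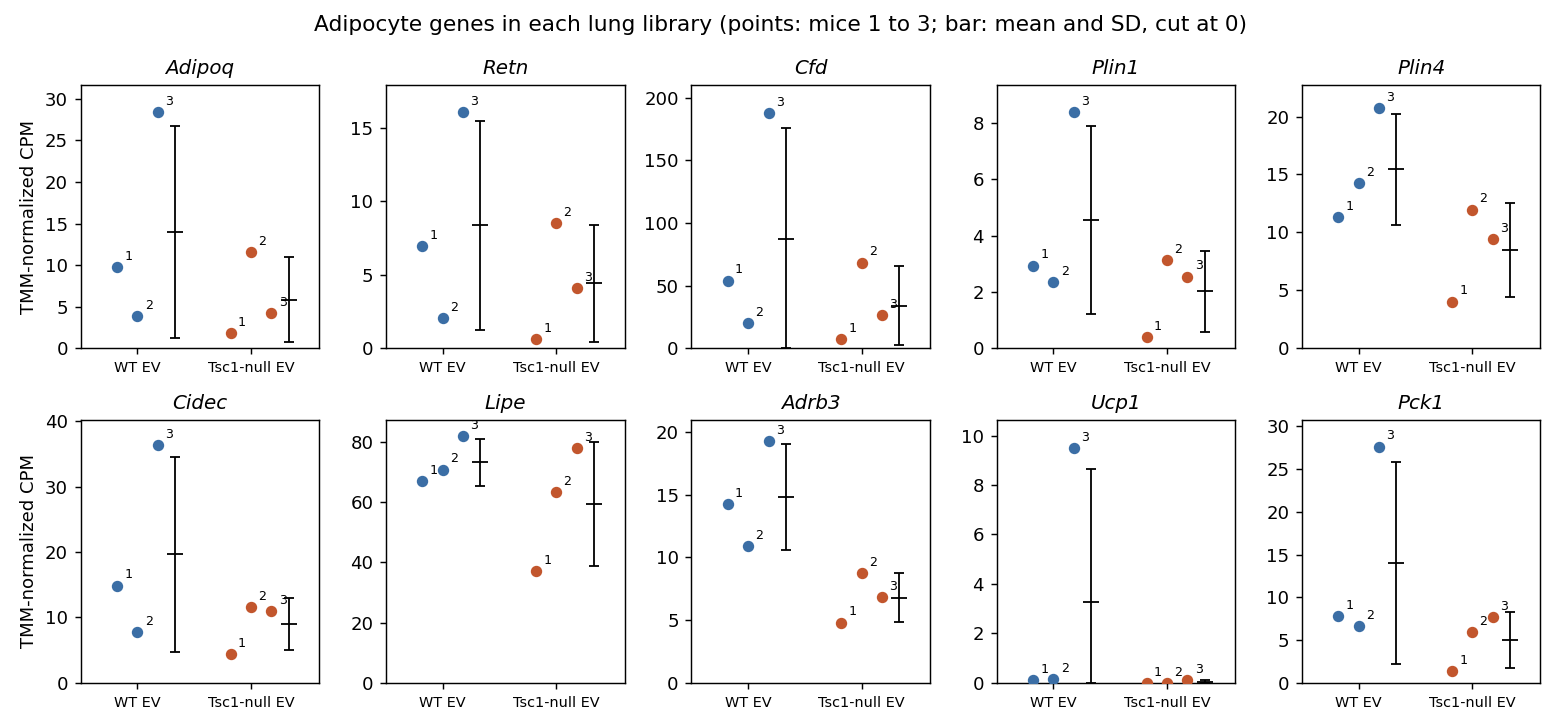
TMM-normalized CPM (vertical axes, linear from 0) of each of the 10 genes in the 3 WT EV and 3 Tsc1-null EV libraries; numbered points are replicates, and the bar beside them is the mean with its SD, cut at 0. WT EV replicate 3 is the highest point in all 10 panels, and the groups are apart in Adrb3 (10.9 to 19.2 against 4.81 to 8.73).

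The genes are first placed on the genome. By GENCODE M21 on mm10 (GRCm38), Adipoq spans chr16:23146536-23158028, Cfd spans chr10:79890853-79892655, Ucp1 spans chr8:83290352-83298452 and Pck1 spans chr2:173153048-173159273, each read from the plus strand. Adrb3, at chr8:27225776-27250616, is read from the minus strand. Retn (chr8:3655770-3660110) is on the plus strand, and Plin1 (chr7:79720218-79732903), Plin4 (chr17:56100591-56109803), Cidec (chr6:113424634-113435760) and Lipe (chr7:25379527-25398710) are on the minus strand. All 10 are annotated as protein-coding, and values are totals over each gene. Exons of Plin4, Lipe and Adrb3 overlap those of a gene on the opposite strand (Hdgfl2, 4732471J01Rik and Gm45470). Whether counting used the strand is unstated, and for these 3 genes reads of either partner cannot be told apart.

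The promoters of 4 genes are shown because their levels mark the patterns described below. Adipoq and Cfd kept a near constant ratio, Pck1 followed them with a wider spread, and nearly all reads of Ucp1 came from 1 library. Each sequence is the 250 bases before the RefSeq start on GRCm38.p6, read 5′ to 3′ on the gene's strand. Capitals mark matches, on either strand, to 6 short motifs: TATAAA (the TATA box), TATATA (which reads the same on both strands), CCAAT (a common promoter box), AGGTCA (a core motif of nuclear receptors), TGACGTCA (the palindromic cAMP response element) and TTACGTCA (its variant known from Pck1).
Adipoq, chr16:23146286-23146535, plus strand: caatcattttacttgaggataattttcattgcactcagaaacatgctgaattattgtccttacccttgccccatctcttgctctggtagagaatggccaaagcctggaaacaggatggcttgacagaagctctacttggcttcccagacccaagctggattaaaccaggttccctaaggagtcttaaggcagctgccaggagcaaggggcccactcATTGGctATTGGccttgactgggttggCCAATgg
Cfd, chr10:79890603-79890852, plus strand: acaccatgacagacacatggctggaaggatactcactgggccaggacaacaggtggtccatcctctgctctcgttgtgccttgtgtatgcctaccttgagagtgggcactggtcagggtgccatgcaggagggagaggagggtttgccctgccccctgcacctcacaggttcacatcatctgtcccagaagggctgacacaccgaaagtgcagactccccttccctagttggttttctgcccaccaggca
Pck1, chr2:173152823-173153072, plus strand: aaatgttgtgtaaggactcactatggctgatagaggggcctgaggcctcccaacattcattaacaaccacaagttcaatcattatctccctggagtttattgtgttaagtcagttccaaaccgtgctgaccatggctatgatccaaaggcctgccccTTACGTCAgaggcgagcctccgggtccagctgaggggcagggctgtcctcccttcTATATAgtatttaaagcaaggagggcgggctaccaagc
Ucp1, chr8:83290098-83290347, plus strand: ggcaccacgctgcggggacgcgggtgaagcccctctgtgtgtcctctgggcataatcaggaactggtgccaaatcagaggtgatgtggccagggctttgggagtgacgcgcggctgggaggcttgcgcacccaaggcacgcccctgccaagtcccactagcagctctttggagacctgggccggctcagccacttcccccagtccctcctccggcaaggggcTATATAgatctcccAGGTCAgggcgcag

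The Adipoq window holds 3 matches to CCAAT, and the Pck1 window holds TTACGTCA from 93 to 86 bases before the start and TATATA from 38 to 33 bases before it. The Ucp1 window holds TATATA from 28 to 23 bases before the start and AGGTCA from 14 to 9 bases before it. The Cfd window holds none of the 6 motifs. Of 32851 RefSeq promoter windows of the same length, 33.8% hold CCAAT, 14.0% hold AGGTCA, 5.25% hold TATATA, 12.4% hold TATAAA, 1.55% hold TGACGTCA and 0.447% hold TTACGTCA. The motifs TATATA and TTACGTCA were added after the sequences were read, and TTACGTCA and TGACGTCA share all but 1 letter. A match is a description of letters, not of a bound factor. RefSeq windows were matched for 9 of the 10 genes (all but Adrb3).

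The adipokines varied widely and together. Adipoq encodes adiponectin, a hormone that raises insulin sensitivity. It stood at 9.76, 3.82 and 28.4 in the WT EV libraries and at 1.80, 11.5 and 4.20 in the Tsc1-null EV libraries. WT EV replicate 3 was 2.46 times as high as the next library, and the groups overlapped, since Tsc1-null EV replicate 2 exceeded WT EV replicates 1 and 2. The means were 14.0 ± 12.8 and 5.85 ± 5.07 (log2 fold -1.02 ± 0.69, limma adjusted p = 0.774). Behind these values lie 80, 26 and 230 reads in WT EV against 9, 107 and 38 in Tsc1-null EV.

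Cfd encodes adipsin, a serine protease of the alternative complement pathway that fat cells secrete. It stood at 53.9, 20.0 and 187.8 in WT EV and at 7.22, 68.4 and 26.4 in Tsc1-null EV libraries. The 6 libraries had the same order as for Adipoq, and the groups overlapped. The highest library was 26.0 times the lowest (log2 fold -1.27 ± 0.88, limma adjusted p = 0.779). Retn encodes resistin, an adipokine that opposes insulin in rodents. It stood at 6.95, 2.06 and 16.0 in WT EV and at 0.601, 8.52 and 4.09 in Tsc1-null EV libraries, again highest in WT EV replicate 3 and lowest in Tsc1-null EV replicate 1, where it had 3 reads (log2 fold -0.81 ± 0.74, limma adjusted p = 0.841).

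The droplet proteins had the same highest and lowest library. Their SD of log2(value + 1) over the 6 libraries was 0.71 to 0.93, against 1.21 to 1.56 for the adipokines. The added 1 narrows the spread of low genes such as Plin1. Without it, the highest value was 20.9 times the lowest for Plin1, 8.25 times for Cidec and 5.17 times for Plin4. The same ratio was 15.7 for Adipoq, 26.0 for Cfd and 26.7 for Retn. Plin1, the perilipin that guards the fat droplet against lipases, stood at 2.93, 2.35 and 8.39 in WT EV and at 0.401, 3.13 and 2.54 in Tsc1-null EV libraries. Apart from the highest library and Tsc1-null EV replicate 1, which had 2 reads, the other 4 lay between 2.35 and 3.13 (log2 fold -0.86 ± 0.51, limma adjusted p = 0.745). Cidec, which fuses small droplets into the single large droplet of white fat, stood at 14.9, 7.79 and 36.4 in WT EV and at 4.41, 11.5 and 10.9 in Tsc1-null EV libraries. Its groups overlapped through WT EV replicate 2 alone, and without both libraries that stood apart they did not (log2 fold -0.90 ± 0.52, limma adjusted p = 0.744).
Plin4, which coats nascent droplets, stood at 11.3, 14.3 and 20.7 in WT EV and at 4.01, 11.97 and 9.39 in Tsc1-null EV libraries. The groups overlapped by 1 pair, WT EV replicate 1 at 11.3 below Tsc1-null EV replicate 2 at 11.97. The means were 15.4 ± 4.804 and 8.46 ± 4.06 (log2 fold -0.87 ± 0.37, unadjusted p = 0.0431, limma adjusted p = 0.721).

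Of the lipolysis genes, Adrb3 separated the groups and Lipe varied least. Adrb3, the beta 3 adrenergic receptor through which noradrenaline starts lipolysis and heat production, stood at 14.3, 10.9 and 19.2 in WT EV libraries. It stood at 4.81, 8.73 and 6.85 in Tsc1-null EV libraries, each below every WT EV library. The means were 14.8 ± 4.21 and 6.80 ± 1.96 (log2 fold -1.02 ± 0.27, unadjusted p = 0.00485, limma adjusted p = 0.721). Its log2 fold lay between -1.205 and -0.82 over 16 alternatives, with limma or edgeR adjusted p from 0.0157 with sample weights to 0.995 (DESeq2 gave none). Of all genes tested, 6.22% were lower in all 3 Tsc1-null EV libraries without overlap and 6.86% higher, against 2 and 0 of the 10 members, the other being Ucp1. Without both libraries that stood apart, 4 of the 10 were lower without overlap (Cidec, Adrb3, Ucp1 and Pck1), against 21.5% of all genes tested. Ucp1 passed the filter on low values only through WT EV replicate 3, so it adds nothing to either count.
Lipe, hormone-sensitive lipase, stood at 67.1, 70.8 and 82.0 in WT EV and at 37.1, 63.4 and 77.9 in Tsc1-null EV libraries. Its highest value was 2.21 times its lowest, and apart from Tsc1-null EV replicate 1 all 5 libraries lay between 63.4 and 82.0 (log2 fold -0.36 ± 0.26, limma adjusted p = 0.788).

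Pck1, the cytosolic enzyme that makes the glycerol backbone for triglyceride in fat and glucose in liver and kidney, stood at 7.81, 6.61 and 27.6 in WT EV libraries. In Tsc1-null EV libraries it stood at 1.40, 5.93 and 7.73. WT EV replicate 3 was 3.54 times the next library, and the groups overlapped between 6.61 and 7.73. The means were 14.0 ± 11.8 and 5.02 ± 3.26 (log2 fold -1.24 ± 0.60, limma adjusted p = 0.721). Of 9 liver and kidney markers 2 reached a mean of 1, the kidney genes Umod and Slc34a1. Umod stood at 3.53 in WT EV replicate 2 and 4.20 in Tsc1-null EV replicate 3 and at 0 to 1.22 in the other 4 libraries. Slc34a1 stood at 3.97 and 3.31 in the same libraries and at 0 to 0.732 elsewhere. These are also the libraries with the highest ratio of Pck1 to Adipoq (1.73 and 1.84), and the part of such RNA in Pck1 was not tested. The pattern is not particular to Pck1, since the ratio of Plin1 to Adipoq was highest in the same libraries (0.615 and 0.605). Adipoq, the denominator, stood at 3.82 and 4.20 there. The 9 markers had sums of 2.098 to 9.11 for WT EV against 2.37 to 10.3 for Tsc1-null EV.

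Ucp1, the proton leak of brown fat mitochondria, had nearly all of its reads in 1 library. There were 77 reads in WT EV replicate 3 (9.50 CPM), where the exact 95% Poisson interval is 60.8 to 96.2 reads. The other WT EV libraries had 1 read each, and the Tsc1-null EV libraries had 0, 0 and 1. A floor of 3 counts at 0 reads stands for 0.601 and 0.323 CPM in Tsc1-null EV replicates 1 and 2, and the exact two-sided interval used for the 77 reads reaches 3.69 reads there. Both cover counting error only. Ucp1 passed the filter on low values only through WT EV replicate 3, and it was not tested without that library. The non-overlap of its groups rests on 1 read in each of 3 libraries of different depth. Its fitted log2 fold (-1.20 ± 0.78, limma adjusted p = 0.768) therefore rests on 1 library and is no bound. The median of the other 9 genes was -0.90.

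Ucp1 was also set against Adipoq in the same library, a ratio of reads that does not depend on the library's depth or scaling. WT EV replicate 3 had 33.5 Ucp1 reads per 100 Adipoq reads. At that ratio, WT EV replicate 1 would hold 26.8 Ucp1 reads and Tsc1-null EV replicate 2 would hold 35.8, where 1 and 0 were counted. Ucp1 made up 25.1% of the summed reads of both genes in WT EV replicate 3 (exact Clopper-Pearson 95% interval 20.3% to 30.3%), 1.23% (0.0313% to 6.69%) in WT EV replicate 1 and 0% (up to 3.39%) in Tsc1-null EV replicate 2. In Tsc1-null EV replicate 1, with 9 Adipoq reads, the interval reached 33.6%, so no difference from WT EV replicate 3 was detectable there at this depth. The ratio averaged 0.129 ± 0.179 for WT EV against 0.00877 ± 0.0152 for Tsc1-null EV (n = 3 each). The two-sided exact permutation p was 0.2, but 0.1 is the smallest this design allows, so the test could not pass a threshold of 0.05 and does not bear on whether the groups differ.

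**Figure D2:**
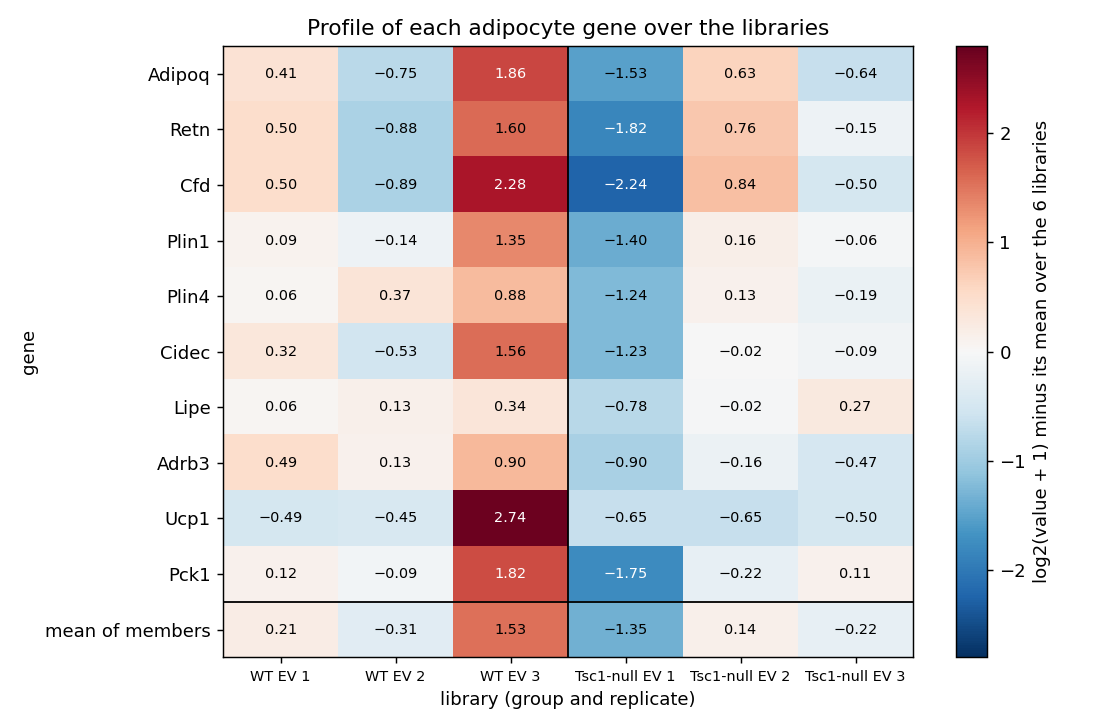
Centred profile of each gene (rows) in each library (columns): log2(value + 1) minus the gene's mean over the 6 libraries, coloured and printed, with the mean of the 10 genes in the bottom row. The bottom row runs from -1.35 in Tsc1-null EV replicate 1 to 1.53 in WT EV replicate 3, and the Lipe row is the palest.

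The 10 genes shared their extremes. All 10 were highest in WT EV replicate 3, where 10.3% of all genes tested had their highest value. Ucp1 passed the filter only through that library, so its highest library was fixed in advance and does not add to the count. All 10 were lowest in Tsc1-null EV replicate 1, Ucp1 in a tie at 0 with Tsc1-null EV replicate 2, where 30.3% of all genes tested had their lowest value. Both held for 805 of 14159 genes (5.69%). WT EV replicate 3 did not stand apart from the other libraries over all genes (median correlation 0.980), while Tsc1-null EV replicate 1 did. Without Tsc1-null EV replicate 1 all 10 log2 folds were below 0, from -1.18 for Ucp1 to -0.055 for Lipe. Retn was at -0.099, and the median over all genes tested was 0.001. WT EV replicate 3, the highest library, is still part of that comparison. The 10 genes summed to 189.1, 138.7 and 436.2 in WT EV and to 61.7, 193.1 and 150.1 in Tsc1-null EV libraries, so the groups overlapped in the sum as well.

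Within a library, the ratio of each gene to Adipoq varied less for some genes than for others. The level of Cfd was 4 to 6.62 times that of Adipoq in all 6 libraries, although Adipoq itself ranged 15.7-fold. Fabp4, the fatty acid binding protein of fat cells, macrophages and capillaries, is no member and was at 4.53 to 8.92 times Adipoq. It stood at 87.1, 19.5 and 177.9 in WT EV against 14.6, 67.3 and 19.0 in Tsc1-null EV libraries (log2 fold -1.31 ± 0.78, limma adjusted p = 0.748), and it also stands in the macrophage and endothelial lists used below. Myl7, of the heart muscle list used below, was at 3.67 to 9.35 times Adipoq. A ratio that varied this little was therefore not particular to fat cell genes. The ratio to Adipoq ranged 2.61-fold for Cidec, 2.77-fold for Plin1, 2.92-fold for Retn and 3.58-fold for Pck1.
It ranged more widely for Adrb3 (0.678 to 2.85), Plin4 (0.730 to 3.73) and Lipe (2.89 to 20.6). For these 3 genes the ratio was lowest in WT EV replicate 3, the library with most Adipoq. The ratio of Adrb3 to Adipoq averaged 1.66 ± 1.10 for WT EV against 1.69 ± 0.956 for Tsc1-null EV (n = 3 each), and the values overlapped. The ratios share Adipoq as denominator, with as few as 9 reads, and are given as a description.

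**Figure D3:**
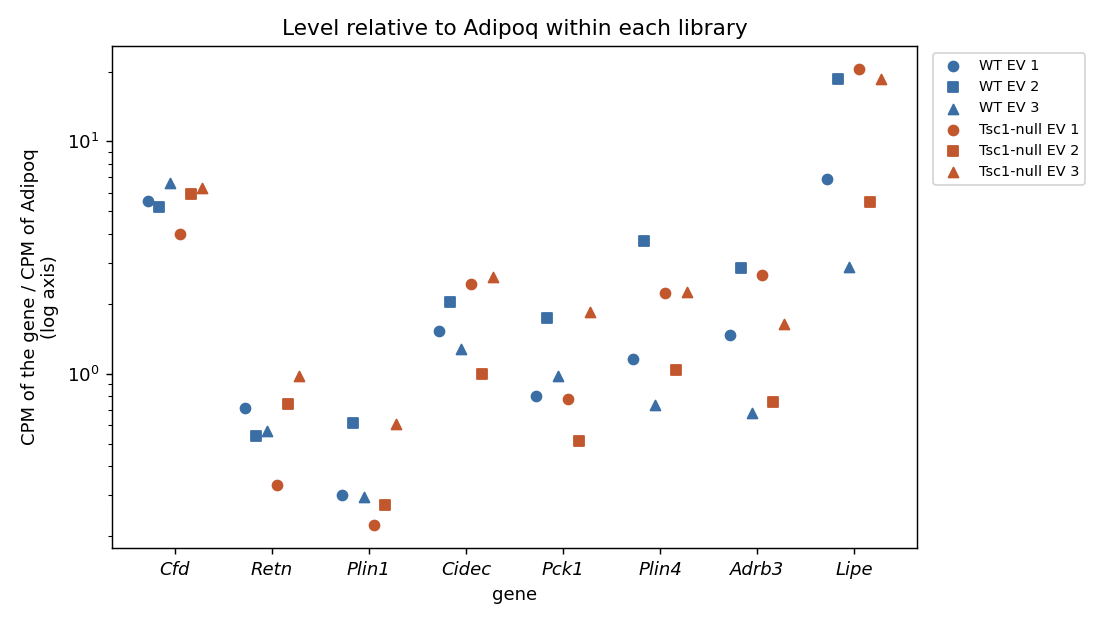
Level of 8 genes divided by the level of Adipoq in the same library (vertical log axis), 1 marker per library, blue for WT EV and orange for Tsc1-null EV. The Cfd markers lie between 4 and 6.62, while those of Lipe spread from 2.89 to 20.6, and the colours mix in all 8 genes.

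Levels can be compared between genes only per length. Per kilobase of exon (GENCODE M21, all exons of a gene joined), Cfd was the most abundant in WT EV lungs at 94.6, followed by Lipe at 12.5, Cidec at 10.6 and Adipoq at 10.1. Next came Retn at 5.29, Adrb3 at 4.38, Pck1 at 4.09, Plin4 at 2.67, Ucp1 at 1.99 and Plin1 at 0.980. With SDs close to the means for Adipoq, Retn, Cfd, Ucp1 and Pck1, the order from Lipe to Adipoq and from Retn to Pck1 is within the spread between samples. The place of Ucp1 above Plin1 comes from WT EV replicate 3 alone, since in the other 2 WT EV libraries Ucp1 had 1 read and Plin1 had 24 and 16. In Tsc1-null EV lungs Cfd (36.9) and Lipe (10.1) were again the highest and Ucp1 (0.0225) the lowest.

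**Figure D4:**
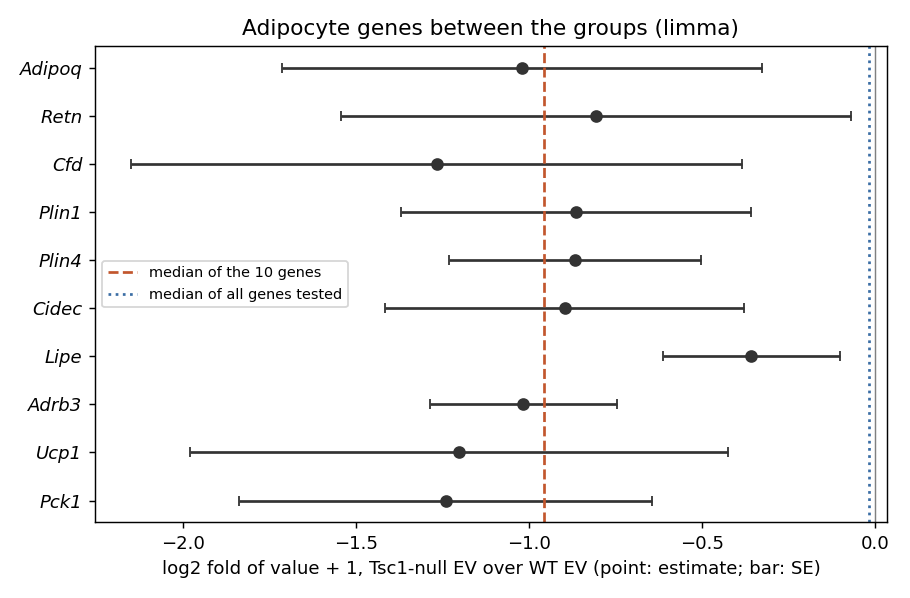
Log2 fold of value + 1 (horizontal axis, Tsc1-null EV over WT EV) of each gene with its SE; the dashed line is the median of the 10 genes (-0.96) and the dotted line that of all genes tested (-0.02). All 10 estimates lie below 0, Lipe (-0.36) nearest to it, and none passed the test.

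Other genes of fat cell biology were taken from lists by role, and limma called 0 genes in each. Of 8 adipocyte transcription factors tested 7 were above 0, and the median log2 fold was 0.19. Cebpb, an early factor of fat cell differentiation that also acts in inflammation, stood at 114.1 ± 4.72 and 174.6 ± 13.6 without overlap (log2 fold 0.61 ± 0.14, limma adjusted p = 0.721). Cebpa, a later factor of that series, stood at 134.9 ± 26.3 and 158.1 ± 14.1. Both factors are also expressed in lung epithelium and myeloid cells. Of 18 genes of lipid uptake and triglyceride synthesis 0 were called and 12 were below 0 (median -0.11). Elovl6, a fatty acid elongase, stood at 11.1 ± 2.26 and 6.63 ± 1.698, and Lpl, the lipase that frees fatty acids from blood lipoproteins, at 294.6 ± 10.98 and 230.3 ± 20.8, both without overlap.

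Of 14 further droplet and lipolysis genes 0 were called, 6 were below 0 and 8 above (median 0.04). Plin5, the perilipin of oxidative tissues, averaged 3.01 ± 0.988 for WT EV against 6.45 ± 0.544 for Tsc1-null EV without overlap, opposite in direction to Plin1 and Plin4 (log2 fold 0.92 ± 0.25, limma adjusted p = 0.721). G0s2, an inhibitor of triglyceride lipase, stood at 42.0 ± 9.67 and 27.5 ± 6.24. Of 11 receptors and signal genes of fat cells 0 were called and 9 were below 0 (median -0.28). Irs1, the insulin receptor substrate, stood at 42.0 ± 3.31 and 27.7 ± 1.30 without overlap (log2 fold -0.58 ± 0.14, limma adjusted p = 0.721), and Adrb1, the beta 1 adrenergic receptor, at 49.0 ± 6.04 and 37.5 ± 9.33. Of 6 other adipokine genes 0 were called and 4 were below 0 (median -0.27). Rarres2, which encodes chemerin, stood at 504.5 ± 300.8 and 233.4 ± 148.1, with its highest value, 850.7, in WT EV replicate 2. Lep, the gene of leptin, named here after its values were seen, was below 1 in all 6 libraries (0.110 to 0.987) and was not tested.

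Of 13 brown fat genes tested besides Ucp1, limma called 0, 8 were below 0, and the median was -0.27. Of all genes tested, 10.3% were highest in WT EV replicate 3, 6.86% were higher without overlap and 6.22% were lower without overlap. Of the 13, 5 were highest in WT EV replicate 3, and 2 had groups that did not overlap, both higher in Tsc1-null EV. These were Prdm16, a regulator of brown fat identity (19.4 ± 0.516 and 24.4 ± 2.60), and Acot11, an acyl-CoA thioesterase (6.24 ± 0.846 and 8.53 ± 0.642), each with a limma adjusted p of 0.721. The 2 genes with the smallest p were Cox7a1 and Cox8b, respiratory complex IV subunits found in brown fat, heart and muscle. Cox7a1 stood at 8.05, 8.08 and 18.9 in WT EV and at 3.41, 9.17 and 3.76 in Tsc1-null EV libraries. Cox8b stood at 4.76, 2.499 and 12.7 and at 1.40, 3.23 and 2.32. The brown fat list had members without reads: Lhx8 was at 0 in all 6 libraries, and Elovl3, Otop1 and Zic1 were at 0 in some. Zic1, not tested, stood at 4.01 in Tsc1-null EV replicate 1, where Ucp1 had no read, and at 0 to 0.588 in the other libraries. Of 5 beige and white fat genes 0 were called and 4 were above 0 (median 0.32). Tcf21, which is also a lung fibroblast factor, was the 1 below 0, at 168.1 ± 20.8 and 109.4 ± 47.4. Tle3, a corepressor that favours white fat genes, stood at 55.9 ± 7.15 and 69.9 ± 6.99, higher without overlap (limma adjusted p = 0.721), and Tnfrsf9 at 1.75 ± 0.448 and 3.04 ± 1.59.

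Markers of other tissues also differed between these libraries. Of 16 heart muscle genes tested (18 listed) 15 were below 0, 0 were called, and 10 were highest in WT EV replicate 3. Of all genes tested, 52.7% were below 0, 10.3% were highest in that library and 6.22% were lower without overlap. The 18 had sums of 582.2 to 986.1 for WT EV against 312.5 to 775.4 for Tsc1-null EV. The cardiac troponin gene Tnnt2 had levels of 127.2, 69.96 and 123.4 in WT EV against 38.7, 82.7 and 51.8 in Tsc1-null EV libraries. Nppa, the atrial natriuretic peptide, stood at 13.3, 0.294 and 15.9 and at 0, 3.23 and 0, and Myl2 and Nkx2-5 were also at 0 in some libraries. Mesothelial markers (11 tested, 10 below 0, 3 of them without overlap, 0 called) summed to 786.2 to 1455 and 294.5 to 845.0, with their highest sum in WT EV replicate 2 and 0 of 11 highest in WT EV replicate 3. Bnc1 was at 0 in Tsc1-null EV replicate 1. Wt1, a mesothelial factor, stood at 6.83, 16.8 and 7.28 and at 1.203, 3.88 and 5.52. The part of these tissues in the values of the 10 genes was not tested.

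**Figure D5:**
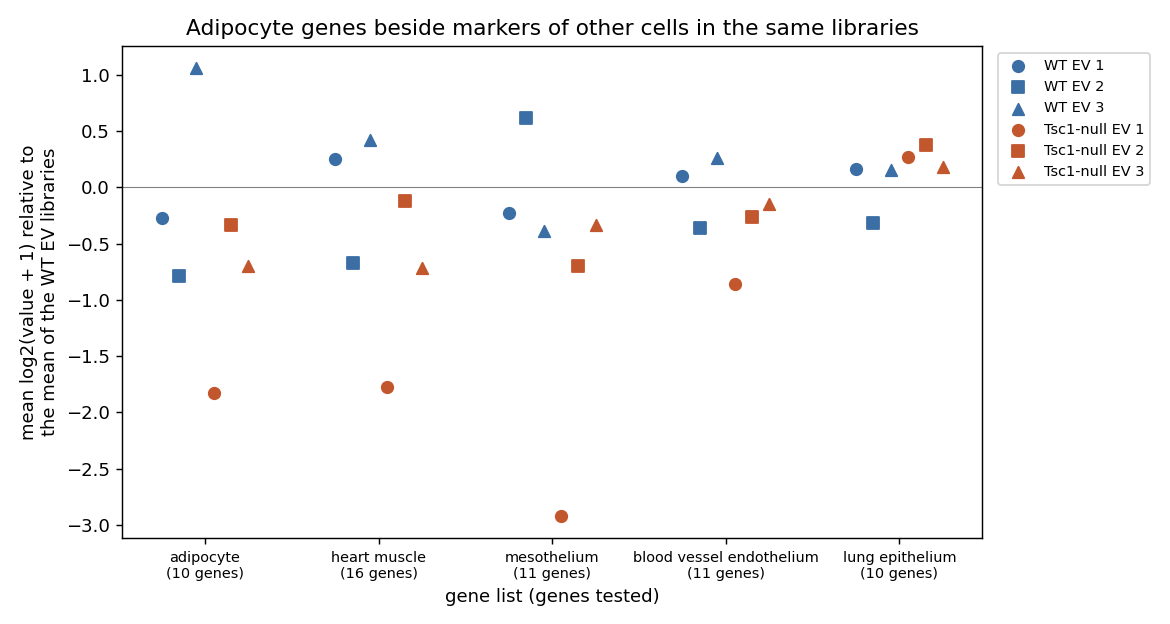
Mean log2(value + 1) of each gene list relative to the mean of the WT EV libraries (vertical axis), 1 marker per library, for the 10 adipocyte genes and markers of heart muscle, mesothelium, vessel endothelium and lung epithelium. Tsc1-null EV replicate 1 is lowest in the first 4 lists (-1.83, -1.78, -2.92 and -0.86) and not in lung epithelium (0.27), and WT EV replicate 3 reaches 1.06 in the adipocyte genes.

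The remaining marker lists are given by their sums. Endothelial markers (11 tested, 11 below 0, 0 called) summed to 3289 to 4467 for WT EV against 2313 to 4118 for Tsc1-null EV, and lung epithelial markers (10 tested, 2 below 0, 0 called) to 74024 to 97985 and 97592 to 114939. Sums in the same order were 937.0 to 1387 and 809.1 to 1288 for alveolar macrophages (median log2 fold -0.10). They were 4355 to 4735 and 2500 to 4477 for lung lipofibroblasts (-0.10) and 1205 to 1632 and 901.9 to 1708 for preadipocytes and adventitial fibroblasts (-0.09). Skeletal muscle genes summed to 28.4 to 48.2 and 26.9 to 36.7 (5 of 12 tested, median -0.04). Ckm, muscle creatine kinase, which the heart also expresses, stood at 23.8, 13.2 and 32.2 and at 4.41, 20.4 and 12.5. In the lymph node and thymus list Foxn1 and Rag1 were at 0 in all 6 libraries, and its sum (66.1 to 113.9 and 1.51 to 52.7) was mostly Ccl21a in WT EV libraries. Ccl21a, a chemokine of lymphatic vessels and lymph nodes, stood at 88.1, 63.5 and 111.5 in WT EV against 50.1, 0.108 and 4.42 in Tsc1-null EV libraries, without overlap (log2 fold -3.68 ± 1.12, limma adjusted p = 0.721).

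The 8 genes whose centred profile over the 6 libraries lay nearest to the mean profile of the 10 were Cyp2e1, Thrsp, Ckm, Fabp3, Hrc, Ephx2, Lrtm2 and Ckmt2. Predicted genes, pseudogenes and the 10 members were left out of this choice. Likeness was the root mean square difference in log2(value + 1), which was 0.121 for Cyp2e1 and 0.370 for Ckmt2, against a median of 0.867 over 11697 genes with a mean of at least 5. Cyp2e1, a cytochrome P450 found in liver, fat and lung, stood at 21.2, 12.5 and 61.1 and at 5.61, 19.2 and 15.0. Thrsp, a lipogenic factor of liver and fat, stood at 30.1, 12.6 and 48.7 and at 6.62, 19.8 and 15.6. Ckm, Fabp3, Hrc and Ckmt2 are known from heart and skeletal muscle. Among the members, Plin1 (0.133) and Cidec (0.143) lay nearest to the mean profile, and Ucp1 (0.726), Cfd (0.623) and Lipe (0.610) farthest from it. These are descriptions over 6 libraries, from a choice among many genes.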

How the data were processed

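The authors deposited 1 table of a signal per gene, TMM-normalized by its name and linear by its values, with a column per library. Bowtie2 2.1.0, RSEM 1.2.15, edgeR and build mm10 are named, without roles, in the submitters' processing notes. Not given in the sources used here are the annotation, any filter, strand use and any step that separated rat from mouse reads. Values were whole multiples of 1 step per library (all but 2 of 144324 within 0.001), so whole reads were recovered. Groups came from the treatment labels. Libraries of a group differed by a chi-square per degree of freedom of 8.78 to 55.2, above counting noise, which does not show that they came from separate mice.

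The members and lists were chosen with earlier results of these data known. The fit used limma 3.58.1 (R 4.3.3) on log2(value + 1) of genes whose mean reached 1, with a mean-variance trend, two-sided, at a threshold of 0.05 after Benjamini-Hochberg adjustment. All 10 members were named. From each list up to 3 genes with the smallest p and the most abundant could be named, with the 8 nearest profiles, Malat1 and markers listed at 0. Lep, Prdm16 and Myl7 were named outside this rule, after their values were seen. The log2 ratio of Ucp1 to Adipoq planned for the permutation test has no value at 0 reads, so the plain ratio was used. A log2 ratio with 1 added to both values was tried as an alternative. It averaged -2.27 ± 0.905 for WT EV against -2.45 ± 1.10 for Tsc1-null EV (two-sided exact permutation p = 0.7). Alternatives tried were other pseudocounts (0.5, 0.1), other filters (none, a minimum mean of 5), a common median, no trend, sample weights (limma arrayWeights), edgeR 4.0.16 and DESeq2 1.42.0 on the recovered reads, and each replicate left out. Leaving out both libraries that stood apart was added after seeing the data. Scripts were tested on simulated data.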

Additional observations from a re-analysis of the deposited data

How the results depend on the processing

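All 10 genes kept a log2 fold below 0 in each of the alternatives run in which they were tested, and their median lay between -1.15 and -0.95, or between -1.42 and -0.41 with 1 library left out. Nearly all reads of Ucp1 were in WT EV replicate 3, so its direction adds no support. With sample weights (0.21 for Tsc1-null EV replicate 1 to 4.19 for WT EV replicate 3), limma called 1050 genes (7.42% of those tested) and 4 of the 10: Adrb3 (adjusted p = 0.0157), Pck1 (0.0349), Ucp1 (0.0391) and Cidec (0.0441). The library with the largest weight is the one where all 10 were highest, and Ucp1 passed the filter only through it, so its call is no support. DESeq2 called 14 genes and 0 of the 10, giving an adjusted p for 3 of the 10. Without both libraries that stood apart 23 genes and 0 of the 10 were called, and with 1 library left out 0 to 2 genes and 0 of the 10. The groups did not overlap in 1 of 8 genes with a minimum mean of 5 (6.33% of all genes tested) and 1 of 9 with edgeR (6.26%), Ucp1 being left out of both, in 1 to 4 with 1 library left out (9% to 14.3%), and in 4 without both libraries that stood apart, where 21.5% of all genes tested were lower without overlap. Where libraries were left out, Ucp1 is among these genes wherever it was tested, and it adds no support. The difference in the ratio of Ucp1 to Adipoq (-0.12) lay between -0.178 and -0.0167 with 1 library left out, the latter without WT EV replicate 3. Retn, Plin1 and Ucp1 rest on 0 to 3 reads in Tsc1-null EV replicate 1, so depth limits their values there. No paired analysis was possible because the labels give the groups no shared replicate numbers.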
